A study of Mus musculus with 8 samples.

Results

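The subunits of the mitochondrial respiratory chain and ATP synthase were followed in RNA from mouse eyes. Members were the genes whose symbol on the array annotation started with Nduf (complex I), Sdha to Sdhd (complex II), Uqcr (complex III), Cox4 to Cox8 (complex IV) or Atp5 (complex V), on a probe set that carried no other gene's symbol. The rule found 87 genes of 12393 on the array, measured by 160 probe sets. Of these genes, 41 had 1 probe set and 46 had several. Each gene was represented by its probe set with the highest mean signal over the 8 arrays. There were 34 genes of complex I, 4 of complex II, 8 of complex III, 16 of complex IV and 17 of complex V. A further 8 genes that the symbols drew in (Ndufaf1, Ndufaf3, Ndufaf4, Ndufaf5, Ndufaf7, Sdhaf1, Sdhaf2 and Sdhaf4) encode assembly factors, which help to build a complex without staying in it, and were kept as a group of their own. Ndufa4 was counted with complex I by its symbol, although its product is now assigned to complex IV. All 87 passed the filter on low signals.

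The study compared KPAW eyes with wild-type eyes in pups of 5 days and in mice of 1 month, with 2 arrays (numbered I and II) per group and 4 groups. What KPAW stands for is not given in the labels. The labels name the strain C57Bl6 for the 5-day wild type and give no strain for the other groups. The labels do not say whether the 2 arrays of a group came from separate animals. Each p-value therefore measures only the spread between these arrays, which may be technical in 1-month wild type. The other pairs were not repeats of 1 RNA, as values given below differed widely within them. These were Xist (5-day KPAW), rod genes (1-month KPAW) and keratinizing epithelium genes (5-day wild type).

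Oxidative phosphorylation runs on the inner mitochondrial membrane. Complexes I and II pass electrons from NADH and succinate to ubiquinone, complex III hands them to cytochrome c, and complex IV reduces oxygen. Complexes I, III and IV pump protons, and complex V, the ATP synthase, lets them flow back and makes ATP. Photoreceptors pack such mitochondria into their inner segments and are among the heaviest users of oxygen in the body. The mitochondrial genome encodes a few core subunits of complexes I, III, IV and V. All members here are nuclear genes.

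Nuclear genes of the chain are known for shared promoter motifs, so stretches before the start are shown for 5 members called with age in wild type below, each 100 bases long and ending at the base before the start. RefSeq promoter windows (build GRCm38.p6, 250 bases before and 50 after the start) matched 73 of the 87 members. Capitals mark a match, on either strand, to CCGGAAG, the ETS motif bound by GABP (in Sdhd, Uqcrh and Cox6b1), or to AAGGTCA, the motif of the estrogen-related receptors (in Atp5l).
Sdhd, chr9:50603850-50603949, minus strand: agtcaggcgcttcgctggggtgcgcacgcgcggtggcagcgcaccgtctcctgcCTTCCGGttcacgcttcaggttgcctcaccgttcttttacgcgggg
Uqcrh, chr4:116075071-116075170, minus strand: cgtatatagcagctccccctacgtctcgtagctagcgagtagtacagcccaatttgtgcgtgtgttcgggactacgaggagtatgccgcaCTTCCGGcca
Cox6b1, chr7:30626115-30626214, minus strand: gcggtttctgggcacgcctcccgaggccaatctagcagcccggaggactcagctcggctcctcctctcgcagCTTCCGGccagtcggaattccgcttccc
Atp5l, chr9:44920743-44920842, minus strand: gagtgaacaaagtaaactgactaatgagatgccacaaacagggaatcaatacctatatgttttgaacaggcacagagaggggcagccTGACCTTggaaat
Cox8b, chr7:140900447-140900546, minus strand: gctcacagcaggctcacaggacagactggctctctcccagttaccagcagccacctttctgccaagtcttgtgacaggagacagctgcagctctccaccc
The capitals begin 46 bases before the start in Sdhd, 10 in Uqcrh, 28 in Cox6b1 and 13 in Atp5l. The stretch of Cox8b, the only one of these genes that was higher at 1 month, held none of the motifs searched. The 5 genes were picked by hand, so these stretches show no link between motif and direction. Lower members that are not printed, such as Ndufb1, Ndufc2 and Atp5o, held none of the motifs in their windows either.

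Across the whole windows, the ETS motif stood in 20 of 73 members (27.4%), against 9.93% of the 27025 genes with a window. AANATGGCG, the motif of YY1, stood in 10 members (13.7%, against 2.76%), and the palindrome of NRF-1 (GCGCA followed by its reverse complement) in 6 (8.22%, against 1.07%). The receptor motif AAGGTCA stood in 7 (9.59%, against 5.38%). Both strands were searched and no match to one motif overlapped a match to another in the members' windows. Among the 15 members with a window that were lower at 1 month in wild type, 6 held the ETS motif, 2 the receptor motif, 1 the YY1 motif and 0 the NRF-1 motif. Of the other 58 members with a window, 14, 5, 9 and 6 did. A match describes these letters only and shows no binding.

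All values below are signals scaled between arrays, and differences are log2 differences with the standard error of 1 limma model fitted to all 15838 probe sets that passed the filter. A call is a Benjamini-Hochberg adjusted p under 0.05 in that model. The signal of a probe set also depends on its probes, so signals of different genes were not ranked.

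The arrays carried eye markers throughout. The summed signal of 6 lens genes, all on the array, lay between 29.4 and 42.2. One array stood apart. The summed signal of 8 rod genes was 6.55 to 7.09 on the 5-day arrays and 31.2, 38.7 and 35.0 on both 1-month wild-type arrays and KPAW array II, but 0.771 on the 1-month KPAW array I, where 2 of the 8 were at the lowest listed value. The sum of 6 keratinizing epithelium genes was 19.8 and 7.84 on the 1-month KPAW arrays and 0.334 and 0.346 on the 1-month wild-type arrays. At 5 days it was 4.48 and 0.392 in wild type and 3.20 and 0.300 in KPAW. Dividing-cell genes summed to 1.17 to 1.35 at 5 days and 0.309 to 0.698 at 1 month. The 3'/5' signal ratio of Gapdh lay between 0.799 and 0.959 and that of Actb between 1.27 and 1.86; both were highest on the 5-day wild-type array I. Xist, the RNA of the inactive X chromosome, read 2.95 and 3.64 on the 5-day wild-type arrays and 0.0817 and 0.0523 at 1 month. In KPAW it read 0.0821 and 3.13 at 5 days and 0.0861 and 0.0621 at 1 month. Age and sex therefore cannot be told apart in wild type, for any member, and the 5-day KPAW arrays differed from each other. The part of sex in the KPAW comparisons was not tested. In whole-eye RNA, fewer cells of a type and less RNA per cell cannot be told apart.

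In wild-type eyes 17 of the 87 respiratory chain genes were called lower at 1 month than at 5 days, and 1, Cox8b, was called higher. Over all probe sets tested, 9.33% were called lower and 8.73% higher. The members' median difference was -0.23, against -0.004 over all probe sets tested. Of the members 67 lay below 0 (77.0%), against 50.4% of all probe sets. Both 1-month arrays lay below both 5-day arrays for 52 members and above them for 9, while 33.0% and 32.5% of all probe sets did so.

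Respiratory chain transcripts are abundant, and abundant probe sets as a whole leaned the same way. The members' mean signals had a median percentile of 94.5, and 58 of the 87 were among the strongest 10% of probe sets. Of those 1584 strongest probe sets, 17.6% were called lower and 9.72% higher, with a median of -0.16. The 58 members among them had 13 calls lower (22.4%) and a median of -0.26, and the other 29 had 4 calls lower and a median of -0.06. Across the 87 members, Spearman's rho between mean signal and the age difference was -0.36. What part signal strength has in the members' shift was not tested.

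The calls rested on all 4 wild-type arrays. Without any 1 of them a group was left with 1 array, and calls fell among the members and over all probe sets. The members' median stayed between -0.26 and -0.18 in these fits. The direction also rested on scaling the arrays. On the values as deposited, the median of all probe sets rose by 0.44 from 5 days to 1 month and that of the members by 0.27. On those values 8 members were called higher and 0 lower, against 3238 and 327 of all 15838 probe sets. Of the 18 members called after scaling, 7 then had the opposite sign, all within 0.09 of 0 (Atp5md, Cox6c, Ndufa3, Ndufab1, Ndufv3, Uqcrc2 and Uqcrh). After quantile normalization 3 members were called higher and 15 lower, against 1313 and 1607 of all 15838 probe sets. The differences reported here are thus relative to the rest of each array.

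**Figure D1:**
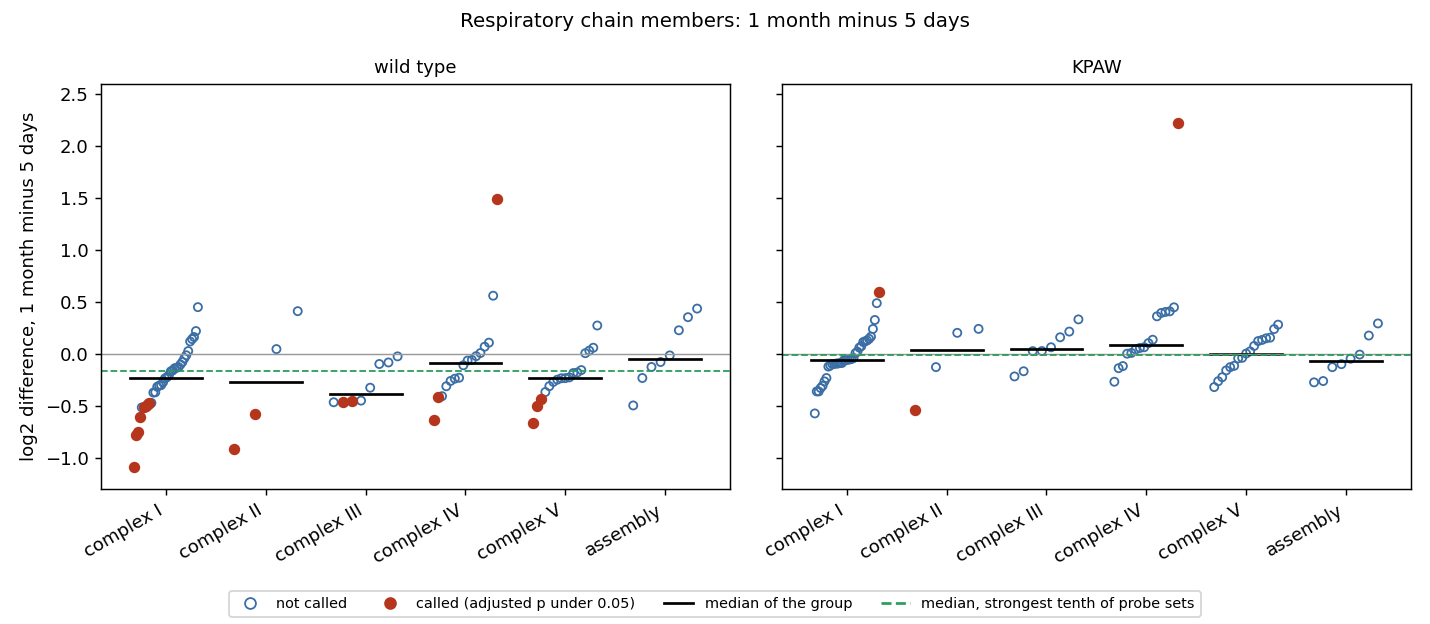
Log2 difference between 1 month and 5 days (vertical axis) for each of the 87 members, grouped by complex, in wild-type eyes (left) and KPAW eyes (right). Filled points passed an adjusted p under 0.05, black bars are group medians and the dashed line is the median of the 1584 strongest probe sets; in wild type 17 members are filled below 0 and only Cox8b above, in KPAW 1 below and 2 above.

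Complex I, the NADH dehydrogenase, had 8 of its 34 members called lower in wild type, with a median of -0.23. All 8 were supernumerary subunits, which surround the catalytic core: 8 of 28 were called, with a median of -0.26. Of the 6 core subunits on the array 0 were called, with a median of -0.06 and 2 at an unadjusted p under 0.05. The difference between core and supernumerary subunits was not tested. The highest difference in complex I was 0.45, for Ndufa10, which was not called.

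Ndufb1, a small subunit of the membrane arm, was the member with the lowest difference. It read 0.201 and 0.239 on the 5-day wild-type arrays and 0.0781 and 0.107 at 1 month, a difference of -1.09 ± 0.23 (SE; limma adjusted p = 0.0154). Its KPAW arrays read 0.107 and 0.169 at 5 days and 0.118 and 0.132 at 1 month. The wild-type ages were thus well separated, while the KPAW ages overlapped.

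Ndufa1, an X-linked membrane-arm subunit needed for assembly of the complex, read 3.74 and 3.77 at 5 days and 2.11 and 2.24 at 1 month in wild type (-0.78 ± 0.20, limma adjusted p = 0.0339). On the 5-day KPAW arrays, of which I was low and II high in Xist, it read 3.14 and 2.83. Ndufb11, the other member known to be X-linked, differed by -0.01 ± 0.13.

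Ndufa7, at the junction of the 2 arms, read 1.87 and 1.93 at 5 days and 1.01 and 1.24 at 1 month (-0.75 ± 0.14, limma adjusted p = 0.0120). Its other 4 probe sets differed by -0.04 to -0.48, and 1 of these was called. Ndufc2 fell from 1.78 and 1.82 to 1.18 and 1.33 (-0.52 ± 0.12), and its second probe set was also called (-0.53). Ndufb8 of the membrane arm fell by 0.61, from 1.56 and 1.74 to 1.09 and 1.05. The remaining calls were Ndufa3 (-0.50), Ndufab1, the mitochondrial acyl carrier protein (-0.49), and Ndufv3, an accessory subunit beside the NADH site (-0.47).

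The core subunits showed no common direction in wild type. Ndufv1, which binds NADH and its flavin, read 0.865 and 0.784 at 5 days and 0.797 and 1.16 at 1 month, overlapping groups. A second Ndufv1 probe set was called higher, by 0.53 (limma adjusted p = 0.0422). Ndufs1, the largest iron-sulfur subunit, differed by 0.12 ± 0.16. Ndufv2 was lower on both 1-month arrays but missed the threshold (-0.37 ± 0.13, limma adjusted p = 0.0852).

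Complex II, succinate dehydrogenase, is the one complex made entirely of nuclear subunits, and its 4 members did not move together in wild type. Sdhd, a membrane anchor at the ubiquinone site, read 0.885 and 0.772 at 5 days and 0.463 and 0.392 at 1 month. This was a difference of -0.92 ± 0.14 (limma adjusted p = 0.00535), the lowest p among the members. Sdhd remained called without the 5-day array II or either 1-month array, and not without the 5-day array I (limma adjusted p = 0.0553). A weak second probe set, with a mean signal of 0.0592, differed by -0.27.

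Sdhb, the iron-sulfur subunit, fell from 1.36 and 1.43 to 0.941 and 0.908 (-0.58 ± 0.12, limma adjusted p = 0.0143). Sdha, the flavoprotein that oxidizes succinate, went the other way: its arrays read 0.941 and 0.951 at 5 days and 1.20 and 1.33 at 1 month (0.41 ± 0.12, limma adjusted p = 0.0549). Its second probe set was called higher, reading 0.365 and 0.311 at 5 days and 0.601 and 0.563 at 1 month (0.75, limma adjusted p = 0.0132). Sdhc, the other anchor, differed by 0.04 ± 0.14, with overlapping arrays.

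**Figure D2:**
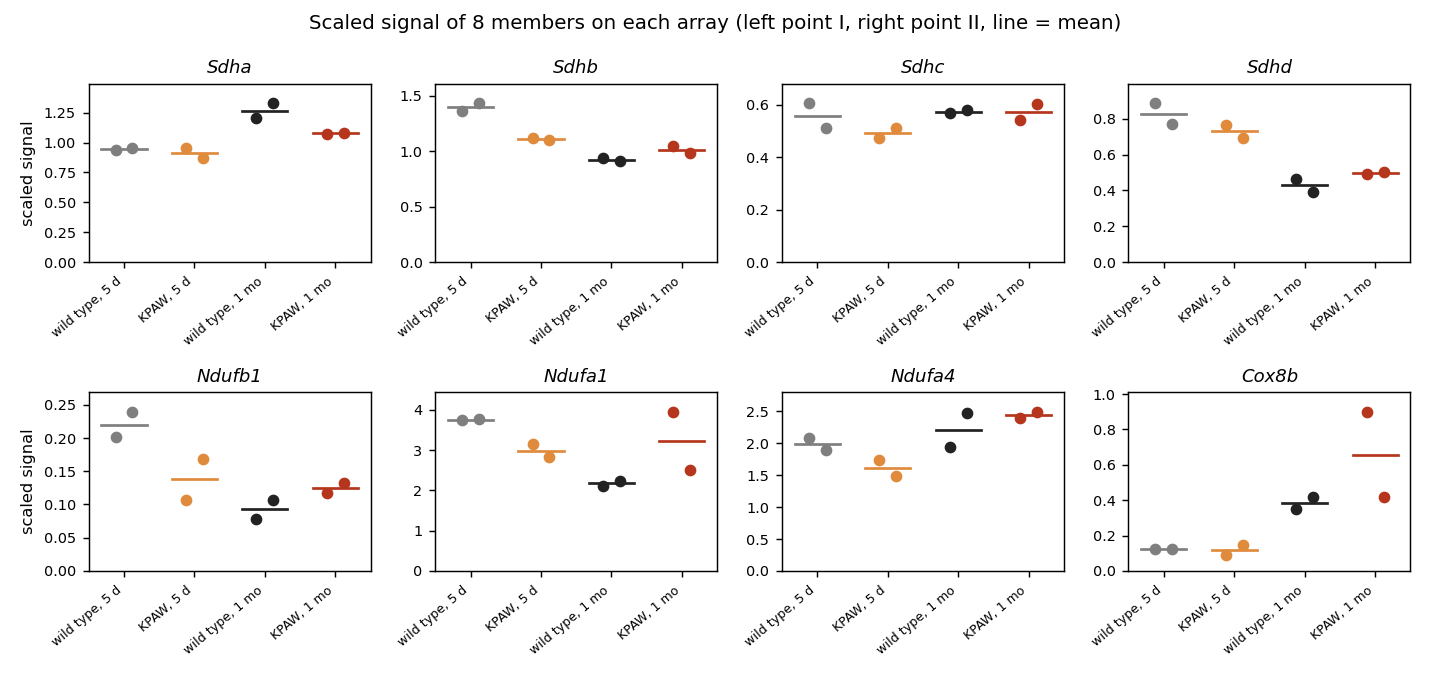
Scaled signal (vertical axis, from 0) of 8 members on each of the 8 arrays, with the 4 groups on the horizontal axis; points are arrays I (left) and II (right), and lines are group means. Sdhb and Sdhd are lower on both 1-month wild-type arrays than on both 5-day arrays while Sdha is higher, and Cox8b is higher on every 1-month array.

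Complex III had the lowest median of the complexes, -0.39, with all 8 members below 0 and 2 called. Other tested probe sets of these genes did not all lie below 0, and none was called. They differed by 0.52 and 0.01 (Uqcr10), 0.06 (Uqcrb), -0.13, 0.21 and 0.50 (Uqcrq, dim) and -0.19 (Uqcrc2). Uqcrc2, a core protein on the matrix side, fell from 1.43 and 1.53 to 1.07 and 1.07 (-0.46 ± 0.12, limma adjusted p = 0.0388). Uqcrh, the hinge protein next to cytochrome c1, fell by 0.45, from 1.30 and 1.31 to 0.880 and 1.02. Uqcrfs1, the Rieske iron-sulfur protein that hands on the electrons, differed by -0.47 ± 0.17 and did not pass (limma adjusted p = 0.0977). Uqcrq was nearest to 0, at -0.03.

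In complex IV, cytochrome c oxidase, all 10 members other than the tissue-restricted isoforms lay below 0, with a median of -0.25 and 2 calls. Cox7a2l was counted among the 10 by its symbol. Cox6b1, on the side facing cytochrome c, fell from 3.01 and 2.98 to 1.81 and 2.02 (-0.64 ± 0.14, limma adjusted p = 0.0212), and Cox6c fell by 0.42. Cox4i1 and Cox5a, which bind each other early in assembly, differed by -0.23 and -0.11 and did not pass. Other Cox5a probe sets differed by -0.13 and 0.45 and were not called either. The probe set of Cox7c was dim on every array (0.0414 to 0.0545), so its value says little.

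The 6 tissue-restricted isoforms of complex IV had a median of 0.09, and the difference between them and the other members was not tested. Cox8b, the isoform of heart, skeletal muscle and brown fat in mice, read 0.122 and 0.123 on the 5-day wild-type arrays and 0.350 and 0.418 at 1 month. This was a difference of 1.49 ± 0.34 (limma adjusted p = 0.0211), and a 2.82-fold change on the scale of log2 with the pseudocount. In KPAW it read 0.0897 and 0.147 at 5 days and 0.898 and 0.416 at 1 month, 2.22 ± 0.34 higher (limma adjusted p = 0.00594). All 1-month arrays lay above all 5-day arrays, and KPAW array I was the highest. Without that array the KPAW difference was 1.68 and remained called.

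Muscle genes varied between arrays beside Cox8b. All 11 muscle markers were on the array. Their summed signal was 3.34 to 4.58 in 5-day wild type, 2.58 to 4.62 in 5-day KPAW, 3.31 to 4.75 in 1-month wild type and 3.46 to 5.57 in 1-month KPAW. Taken gene by gene, 8 of the 11 lay above 0 with age and 3 below, in wild type and in KPAW. Their medians were 0.63 and 0.76, against -0.004 and -0.04 over all probe sets. Myoglobin (Mb) rose in wild type from 0.132 and 0.170 to 0.576 and 0.497, whereas the actin Acta1 fell by 1.28. The myosin Myh4 was at the lowest listed value on all 4 of the 5-day arrays, and read 0.240 and 0.164 at 1 month in wild type and 0.149 and 0.0625 in KPAW. Brown fat genes (3 of 3 on the array) summed to at most 0.210 on any array. The part of muscle in the rise of Cox8b was not tested. Cox7a1, another heart and muscle isoform, was dim and did not pass (0.56 ± 0.21 in wild type), and Cox6a2 differed by -0.02 ± 0.34.

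Complex V, the ATP synthase, had 3 of 17 members called lower in wild type, with a median of -0.24. Atp5o, the OSCP subunit that ties the peripheral stalk to the catalytic head, fell from 1.77 and 1.67 to 1.09 and 1.06 (-0.67 ± 0.13, limma adjusted p = 0.0143). Atp5l, subunit g of the membrane part, fell by 0.51, and Atp5md, a small membrane subunit, by 0.44 (limma adjusted p = 0.0497). None of the 5 head subunits was called by limma (0 at an unadjusted p under 0.05). Atp5b, the catalytic beta subunit, read 2.52 and 2.36 at 5 days and 2.70 and 3.21 at 1 month, a difference of 0.27 ± 0.14 that did not pass. The 3 genes of the c ring, Atp5g1, Atp5g2 and Atp5g3, which encode the same mature protein, differed by 0.03, -0.24 and -0.16.

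Of the 8 assembly factors 0 were called by limma in wild type (1 at an unadjusted p under 0.05), with a median of -0.05. Ndufaf7, which methylates a complex I subunit, was nearest to the threshold (-0.50 ± 0.15, limma adjusted p = 0.0559). Sdhaf1, which serves the iron-sulfur clusters of complex II, read 0.178 and 0.193 at 5 days and 0.263 and 0.253 at 1 month, a difference of 0.43 ± 0.20 that did not pass.

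Other probe sets of the same genes gave a further look at wild type. The 18 called members had 12 other probe sets that were tested. All 12 differed in the direction of the call, and 2 were called themselves. No probe set of a called member was called the other way. Of the members not called, Atp5j2 (-0.63) and Ndufb2 (-0.63) had a second probe set that was called lower.

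In KPAW eyes the same comparison of ages gave 3 calls. Cox8b (above) and Ndufa4 were higher and Sdhd was lower. Over all probe sets 6.76% were called higher and 7.51% lower. The members' median was 0.00, with 42 below 0 (48.3%), against -0.04 and 53.7% over all probe sets. The 1-month arrays lay above both 5-day arrays for 22 members and below for 25, against 25.3% and 32.2% of all probe sets. Of the strongest 10% of probe sets, 9.09% were called higher and 9.34% lower. The medians were -0.06 for complex I, 0.04 for complex II, 0.04 for complex III, 0.08 for complex IV, 0.00 for complex V and -0.07 for the assembly factors. Without the 1-month KPAW array I the members' median was -0.02, and those of the groups were -0.07, 0.03, -0.03, 0.05, -0.03 and 0.01 in the same order.

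Sdhd read 0.766 and 0.693 at 5 days and 0.490 and 0.501 at 1 month in KPAW, a difference of -0.54 ± 0.14 (limma adjusted p = 0.0435). Ndufa4 rose from 1.74 and 1.48 to 2.40 and 2.49 (0.60 ± 0.16, limma adjusted p = 0.0423). Its wild-type arrays read 2.09 and 1.89 at 5 days and 1.95 and 2.48 at 1 month and overlapped. Both calls lay close to the threshold. Sdhd was not called when any 1 of the 8 arrays was left out (limma adjusted p of 0.0517 to 0.159), and Ndufa4 was not called without any 1 of the 5-day arrays or the 1-month KPAW arrays (0.0573 to 0.214). Neither was called with no variance trend (limma adjusted p of 0.0609 and 0.0608). Sdha repeated its wild-type direction in KPAW (0.24 ± 0.12, not called), and its second probe set was called higher there too, by 0.81 (limma adjusted p = 0.0120).

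At 5 days KPAW and wild type were set against each other. No member was called by limma (0 called, with 0.0% of all probe sets called either way). The unadjusted limma p was under 0.05 for 6 members and for 378 of all 15838 probe sets. The arrays nevertheless leaned one way: 74 of 87 members lay below 0 in KPAW, with a median of -0.16, against 47.5% of all probe sets and a median of 0.01. Both KPAW arrays lay below both wild-type arrays for 49 members and above for 3, against 16.6% and 16.8% of all probe sets. Among the strongest 10% of probe sets 68.8% lay below 0, with a median of -0.08.

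The lean was shared by the complexes. The medians were -0.19 for complex I, -0.17 for complex II, -0.16 for complex III, -0.11 for complex IV and -0.16 for complex V, and -0.03 for the assembly factors. Array I lay below both wild-type arrays for 60 members (69.0%) and array II for 65 (74.7%). The shares were 36.4% and 32.5% of all probe sets, and 47.7% and 57.7% of the strongest 10%. Spearman's rho between mean signal and this difference was -0.46 across the 87 members, and the part of signal strength was not tested. On the values as deposited the members' median was 0.04, against 0.18 over all probe sets.

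Members at the ends of the 5-day comparison were Ndufb1 (-0.62 ± 0.23), Ndufa3 (-0.38 ± 0.12) and Sdhb (-0.32 ± 0.12), and on the upper side Cox4i2 (0.39 ± 0.20), Cox7a1 (0.23 ± 0.21) and Ndufaf4 (0.18 ± 0.20). Ndufa3, a small complex I subunit, read 2.32 and 2.18 in wild type and 1.78 and 1.67 in KPAW. Sdhb read 1.36 and 1.43 in wild type and 1.12 and 1.10 in KPAW. The groups did not overlap for either gene, yet the limma adjusted p was 1.00 for both. Cox4i2, the lung isoform of subunit 4, was dim, at 0.0684 to 0.121.

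**Figure D3:**
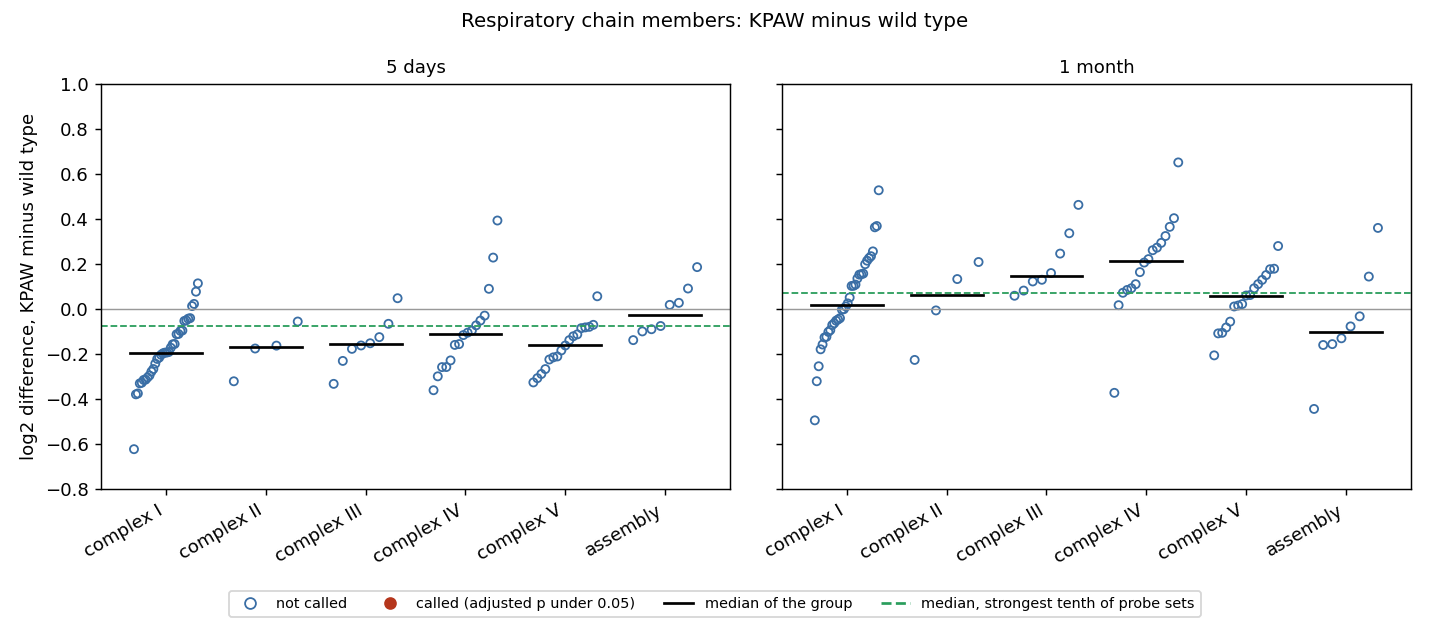
Log2 difference between KPAW and wild type (vertical axis) for each of the 87 members, grouped by complex, at 5 days (left) and 1 month (right). Black bars are group medians and the dashed line is the median of the 1584 strongest probe sets; no member passed an adjusted p under 0.05, and the 5-day medians of complexes I to V lie between -0.19 and -0.11.

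At 1 month 0 members were called between KPAW and wild type by limma, and 0.0126% of all probe sets were called in each direction. An unadjusted limma p under 0.05 was found for 5 members and for 1100 of all 15838 probe sets. The members' median was 0.09, with 57 above 0. It was 0.06 without the 1-month KPAW array I and -0.01 without the wild-type array I. The KPAW arrays were both above both wild-type arrays in 27 members and both below in 11, against 17.0% and 19.6% of all probe sets. The strongest 10% of probe sets had a median of 0.07. By complex, the medians were 0.02 for I, 0.06 for II, 0.14 for III, 0.21 for IV and 0.06 for V, and -0.11 for the assembly factors. All 8 members of complex III and 15 of 16 members of complex IV lay above 0. Without the 1-month KPAW array I these medians were -0.02, 0.08, 0.13, 0.11 and 0.05, and 0.00 for the assembly factors, and 7 and 12 members of complexes III and IV lay above 0. With all arrays, other tested probe sets of complex III read 0.12 and 0.18 (Uqcr10), -0.31 (Uqcrb), 0.34, -0.31 and -0.40 (Uqcrq) and 0.08 (Uqcrc2). In complex IV those of Cox5a read 0.09 and -0.36, and those of Cox5b 0.27, -0.32, 0.15 and 0.31. The highest and lowest members were Uqcr10 (0.46) and Uqcrq (0.06) in complex III and Cox8b (0.65) and Cox7a2l (-0.37) in complex IV. In complex V they were Atp5e (0.28) and Atp5pb (-0.21). Without the 1-month KPAW array I these members stood at 0.59, 0.03, 0.11, -0.17, 0.15 and -0.21 in the same order.

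The 2 KPAW arrays of 1 month disagreed on several members. Ndufa1 read 3.94 on array I and 2.50 on array II, against 2.11 and 2.24 in wild type (0.53 ± 0.20, limma adjusted p = 0.675). Without array I the difference was 0.20. Sdhaf1 read 0.145 and 0.232, against 0.263 and 0.253 in wild type (-0.45 ± 0.20), and its difference was -0.14 without array I. Ndufa12 read 0.702 and 0.988, against 1.23 and 1.14 (-0.50 ± 0.19), and its difference was -0.26 without array I.

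Ndufaf7 read 0.122 and 0.121 in KPAW and 0.0926 and 0.0880 in wild type (0.36 ± 0.15, and 0.35 without the KPAW array I). Sdha read 1.08 and 1.08 in KPAW and 1.20 and 1.33 in wild type (-0.23 ± 0.12, and -0.23 without it). Uqcr11, a small complex III subunit, read 1.08 and 0.856 in KPAW and 0.737 and 0.783 in wild type (0.34 ± 0.14, and 0.17 without it). The groups did not overlap for these genes, and the limma adjusted p was 0.675 for each.

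The change of the KPAW difference from 5 days to 1 month was then tested as an interaction. No member was called by limma (0 called, lowest adjusted p 0.809, with 0.0% of all probe sets called). The unadjusted limma p was under 0.05 for 14 members and for 932 of all 15838 probe sets. The median was 0.21, with 20 of 87 members below 0, against -0.03 and 53.7% below 0 over all probe sets, and a median of 0.13 in the strongest 10%. Ndufb1 (0.99 ± 0.32), Ndufa1 (0.86 ± 0.29) and Ndufa3 (0.63 ± 0.17) were at the upper end and Sdhaf1 (-0.54 ± 0.29), Cox4i2 (-0.38 ± 0.28) and Ndufv1 (-0.33 ± 0.27) at the lower. Without the 1-month KPAW array I the median was 0.19, with 15 members below 0. Those members then stood at 1.06, 0.53 and 0.60 at the upper end and -0.23, -0.25 and -0.24 at the lower. Leaving out the 1-month KPAW array II leaves 1 array in that group, so no call of that fit is given.

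For 19 members both KPAW arrays lay below both wild-type arrays at 5 days and above them at 1 month, and for 0 members the reverse. This is 21.8% of the members. Of all probe sets 3.74% had this pattern and 3.77% the reverse, and of the strongest 10% of probe sets 9.85% and 2.59%. They come from complexes I (8 members), II (2), III (2), IV (4) and V (3) and include Ndufb1, Ndufa1, Sdhd, Sdhb, Uqcr11, Cox6b1 and Atp5o. Without the 1-month KPAW array I (a count added after seeing the data) the pattern was seen in 21 members (24.1%) and the reverse in 1, against 5.32% and 5.98% of all probe sets and 12.4% and 3.16% of the strongest 10%. The 6 lens genes had the same pattern of signs. All 6 lay below 0 in KPAW at 5 days (median -0.21) and all 6 above 0 at 1 month (median 0.21). Beside this, keratinizing epithelium genes were high on both 1-month KPAW arrays and rod genes low on array I. The part of lens, epithelium and rods in the members' pattern was not tested.

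**Figure D4:**
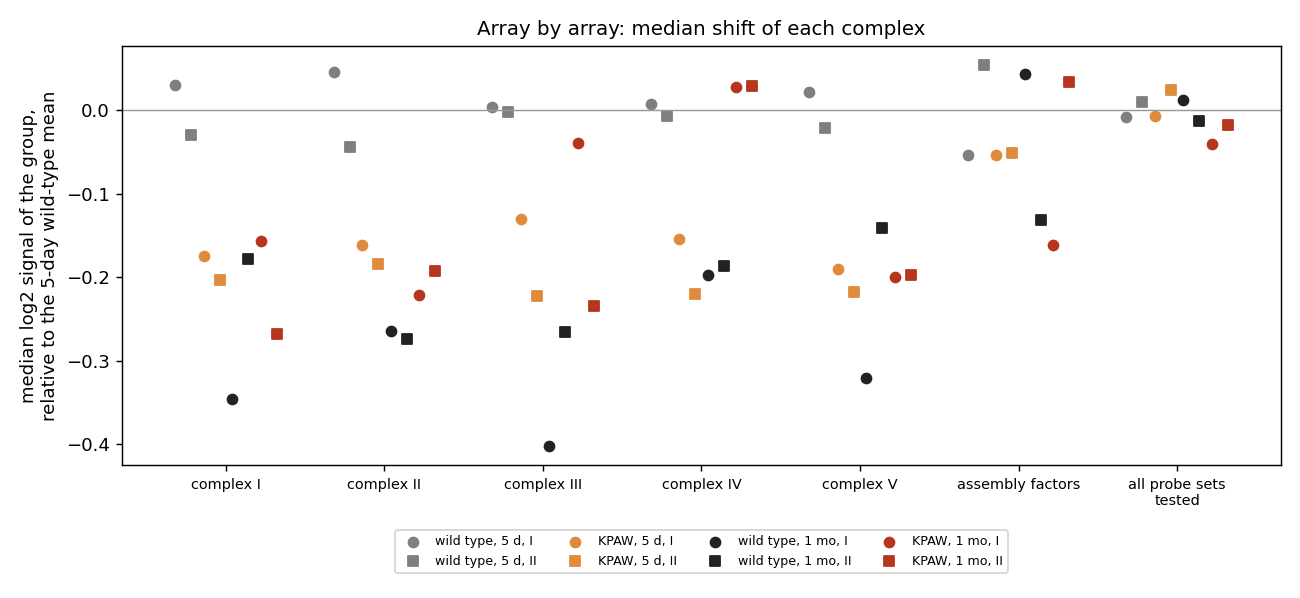
Median log2 signal of each complex on each array relative to the 5-day wild-type mean (vertical axis), with the complexes, the assembly factors and all probe sets tested on the horizontal axis; circles are arrays I and squares arrays II. The 5-day KPAW arrays and the 1-month wild-type arrays lie below the 5-day wild-type arrays for complexes I to V, and the medians of all probe sets lie near 0.

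Taken array by array and relative to the 5-day wild-type mean, the members' median was -0.14 and -0.20 on the 5-day KPAW arrays, -0.26 and -0.18 on the 1-month wild-type arrays and -0.13 and -0.19 on the 1-month KPAW arrays. These 3 groups overlapped, and the 5-day wild-type arrays, at 0.01 and -0.01, stood above them. Single complexes differed from this. In complex IV the 1-month KPAW arrays were at 0.03 and 0.03, above the 5-day wild-type arrays (0.01 and -0.01), and the 1-month wild-type arrays at -0.20 and -0.19. In complex III the 1-month wild-type arrays (-0.40 and -0.26) lay below both KPAW groups. In complex II the 3 groups did not overlap, with the 1-month wild-type arrays lowest (-0.26 and -0.27) and the 5-day KPAW arrays highest (-0.16 and -0.18). The standard deviation of the members' median between the arrays of a group was 0.04.

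Genes that supply or regulate the chain were read from 6 lists of their own. Of their 60 genes tested, 6 rose (10%) and 3 fell (5.0%) in wild type, against 8.73% and 9.33% of all probe sets. In KPAW 6 rose (10%) and 1 fell (1.67%), against 6.76% and 7.51%. Of 12 regulators of mitochondrial biogenesis, 2 rose and 1 fell in wild type. Ppargc1b, a coactivator that raises respiratory gene expression, read 0.237 and 0.204 at 5 days and 0.574 and 0.523 at 1 month (1.24 ± 0.19, limma adjusted p = 0.00493). Its relative Ppargc1a rose by 1.00 ± 0.18, from 0.0654 and 0.0586 to 0.154 and 0.135. Tfam, the factor that packs and transcribes mitochondrial DNA, fell from 0.198 and 0.185 to 0.101 and 0.115 (-0.72 ± 0.14, limma adjusted p = 0.0134).

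KPAW eyes gave 2 of the same 3 calls: Ppargc1a rose by 0.66 ± 0.18 and Tfam fell by 0.73 ± 0.14. Ppargc1b differed by 0.50 ± 0.19 there and did not pass. The factors that bind the motifs searched above did not pass in wild type: Nrf1 differed by -0.21, Gabpa by -0.12, Esrra by 0.55 and Yy1 by 0.03.

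**Figure D5:**
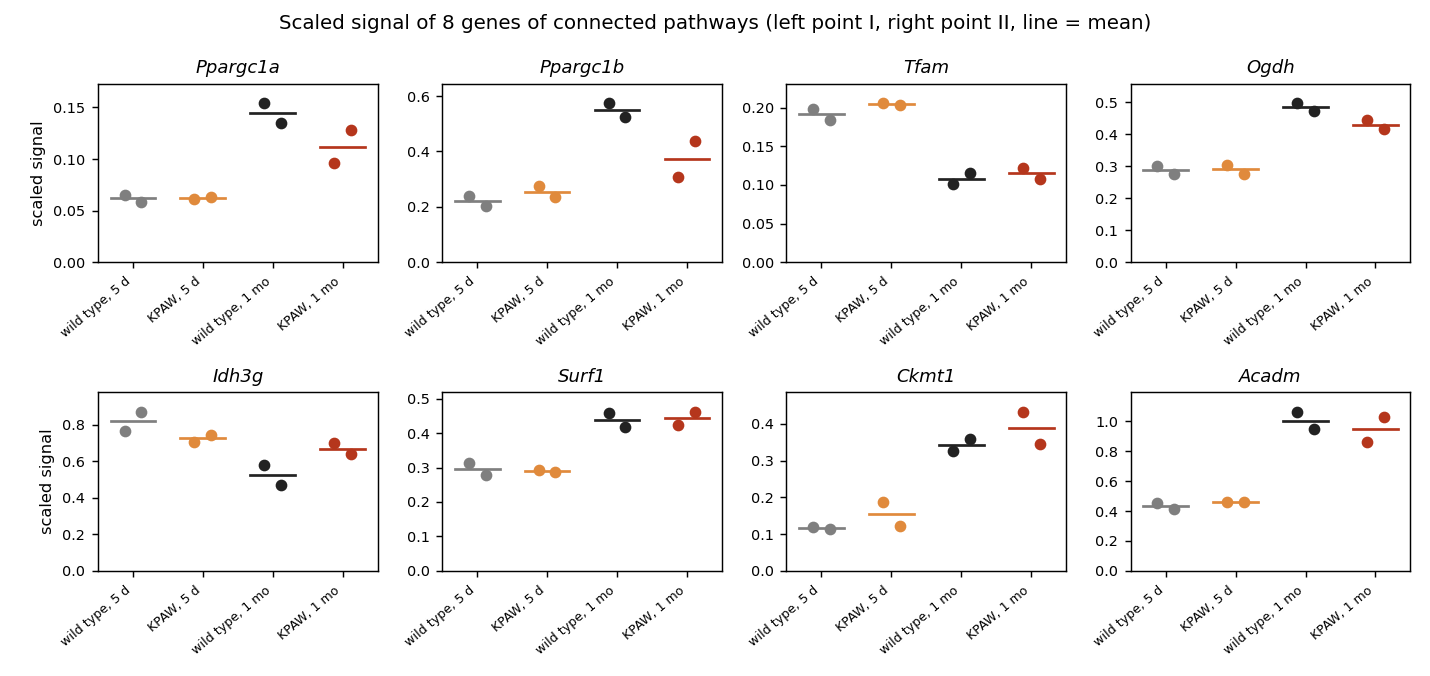
Scaled signal (vertical axis, from 0) of 8 genes of connected pathways on each of the 8 arrays, with the 4 groups on the horizontal axis; points are arrays I (left) and II (right), and lines are group means. Ppargc1a, Ogdh, Surf1, Ckmt1 and Acadm are higher and Tfam is lower on the 1-month arrays of both kinds of eye.

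Among 15 genes of the tricarboxylic acid cycle and pyruvate dehydrogenase, 1 rose and 1 fell in wild type, with a median of -0.01. Ogdh, the first subunit of 2-oxoglutarate dehydrogenase, rose by 0.71 ± 0.13 and Idh3g, a regulatory subunit of isocitrate dehydrogenase, fell by 0.63 ± 0.15. Citrate synthase (Cs) differed by -0.01 ± 0.15. A list of 8 genes held electron carriers and subunits whose symbols the rule did not take, with 3 Coq genes of ubiquinone among them. Only Etfdh, which feeds electrons from fatty acid oxidation to ubiquinone, was called (-0.57 ± 0.16). Cyc1, cytochrome c1 of complex III, was left out of that complex by its symbol and differed by -0.06 ± 0.14. Cytochrome c (Cycs) differed by -0.17 ± 0.12.

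Of 6 cytochrome oxidase assembly genes, Surf1 rose in wild type (0.54 ± 0.13) and KPAW (0.58 ± 0.13). Of 8 tested genes for adenine nucleotide and phosphate exchange, Ckmt1, the ubiquitous mitochondrial creatine kinase, rose in wild type from 0.119 and 0.114 to 0.327 and 0.360 (1.40 ± 0.20, limma adjusted p = 0.00400). It rose in KPAW by 1.23 ± 0.20, where its muscle relative Ckmt2 was also called (1.70 ± 0.40). Acadm, the medium-chain acyl-CoA dehydrogenase, was the only one of 11 fatty acid oxidation genes called, by 1.17 ± 0.14 in wild type and 1.00 ± 0.14 in KPAW. No gene of these 6 lists was called by limma between KPAW and wild type at either age (0 called; 4 at an unadjusted p under 0.05 at 1 month and 1 at 5 days).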

How the data were processed

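The deposited table gives 1 signal intensity per probe set and array for 8 Affymetrix arrays of mouse eye RNA, prepared with Trizol and RNeasy per the labels' protocols. The software behind its values was not given in the sources used here. The deposited intensities were read as linear: control probe sets have a median of 1 on each array, no value lies below 0.01, and 10.0% to 14.9% of an array's probe sets sit at that floor. The number of arrays limits the precision, and 2 against 2 arrays allow no useful exact test of a single value.

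Of 22690 probe sets, 64 controls were left out, and 20380 of the rest carried 1 gene symbol. Genes found only on probe sets of several symbols, among them Ndufa11, Ndufb4 and Ndufs6, were not counted as members. A factor per array brought its trimmed mean (2% off each end) to the median over the 8 arrays, since trimmed means spanned a 1.78-fold range. Values were taken as log2(signal + 0.0211), the 20th percentile, and probe sets with a mean above the 30th percentile were kept (15838). One limma model (limma 3.58.1, R 4.3.3) with a variance trend and 4 group means (4 residual degrees of freedom) gave all contrasts, adjusted over all probe sets kept. On simulated data for age in wild type (15838 probe sets, 50 at each fold) it recovered 6% of 1.5-fold, 52% of 2-fold, 98% of 3-fold and 96% of 4-fold changes and called 12 unchanged probe sets. Far fewer probe sets changed there than were called in the data (1382 higher and 1478 lower). The adjusted threshold therefore differs, and these shares are not recovery rates for the data.

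The members and gene lists were chosen with earlier results of these data known. The report names, per comparison, the called members with the largest differences (or, without calls, those with the largest moderated statistics in each direction), the highest and lowest member of each complex, and the 4 members of complex II; the complex V head, the c ring and other members were added for their roles after their values were seen. Python 3.11.15 with pandas 2.3.3 (tables) and matplotlib 3.10.9 (plots) was used.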

Additional observations from a re-analysis of the deposited data

Results flagged for a closer look

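In 19 members both KPAW arrays lay below wild type at 5 days and both lay above it at 1 month, so that the 2 ages moved in opposite directions on every array. This was 21.8% of the members, against 3.74% of all probe sets and 9.85% of the strongest 10%. The members listed here were picked by this pattern. The change between the ages was tested as an interaction in limma and 0 of the 19 passed. Of all 87 members, picked or not, 14 had an unadjusted limma p under 0.05, against 932 of all 15838 probe sets. In complex I, KPAW minus wild type at 1 month was 0.53 for Ndufa1, 0.37 for Ndufb1, 0.25 for Ndufa3, 0.23 for Ndufab1, 0.22 for Ndufc1, 0.20 for Ndufv3, 0.16 for Ndufb2 and 0.11 for Ndufs3 (log2). It was 0.21 for Sdhd and 0.13 for Sdhb in complex II, and 0.34 for Uqcr11 and 0.13 for Uqcrc2 in complex III. In complex IV it was 0.29 for Cox8a, 0.26 for Cox6b1, 0.21 for Cox4i1 and 0.16 for Cox6c, and in complex V 0.18 for Atp5o, 0.18 for Atp5l and 0.091 for Atp5md. Without the 1-month KPAW array I, which was low in rod genes, these differences lay between 0.04 (Atp5o) and 0.44 (Ndufb1). Ndufa1 was then at 0.20 and Uqcr11 at 0.17. The medians of complex II (0.062), complex III (0.14) and complex IV (0.21) at 1 month followed the same pattern on every array, and for these medians the difference between the ages was not tested.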

How the results depend on the processing

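Scaling set the sign of the members' medians. On the values as deposited (chosen after seeing the data) the median of the members was 0.27 with age in wild type, -0.18 for KPAW at 1 month, 0.040 for KPAW at 5 days and -0.25 for the interaction. The medians of all probe sets were then 0.44, -0.26, 0.18 and -0.45 in the same order. In each, the members lay on the same side of all probe sets as after scaling. With age in wild type 8 members were called, all higher. Of all 15838 probe sets 3238 were called higher and 327 lower. The median with age in KPAW, 0.00, changed sign to -0.078 after quantile normalization and -0.0061 after median scaling, and lay between -0.029 and 0.026 when 1 array was left out. That of KPAW at 1 month lay between -0.011 (without the 1-month wild-type array I) and 0.13 when 1 array was left out. Leaving out 1 array gave 0 to 22 calls with age in wild type, 1 to 2 with age in KPAW, 0 to 1 for KPAW at 1 month and for the interaction, and 0 for KPAW at 5 days. Calls with age in KPAW went from 3 to 1 with no variance trend, with the groups of the contrast alone, on the values as deposited and with array weights (also chosen after seeing the data). Calls with age in wild type, 18, lay between 12 and 24 under the other alternatives to scaling, filter, pseudocount and model. With the replicate block there were 14 calls with age in wild type, 2 with age in KPAW and 0 in each KPAW comparison. Deviations of same-numbered arrays correlated at 0.31, 0.20 and 0.13 between the 5-day wild-type, 5-day KPAW and 1-month KPAW arrays, and at -0.02 to 0.02 with the 1-month wild-type arrays. The numerals were therefore not taken to pair the arrays of all groups. Of 32 results for the members with the largest differences, 0 reversed direction under these alternatives, while 7 of all 18 members called with age in wild type changed sign on the values as deposited. Signals near the floor, as for Cox7c, Cox7a1 and Cox4i2, carry little information.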

Other observations

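Genes that the symbol rule could not separate were read from shared probe sets. The probe set shared by Ndufa11 and Ndufa11b differed by -0.29 with age in wild type (limma adjusted p = 0.206), the 2 probe sets shared by Ndufb4, Ndufb4b and Ndufb4c by -0.13 and -0.14, and the probe set shared by Ndufs6 and Ndufs6b by -0.04. None of these was called by limma (0 called).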
